A study of Mus musculus with 15 samples.

Results

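Lin28b, Hmga2, Hmga1, Igf2bp1, Igf2bp2, Igf2bp3 and Arid3a were followed through RNA sequencing libraries of erythroid progenitors from mouse fetal liver. These 7 genes were chosen by name, each name matched 1 row, and the deposited tables list 55487 genes in all. The names were proposed with earlier mutant-against-wildtype results of these libraries in view, so the differences from wildtype of these 7 genes are given as a description and not as a test. The 15 libraries came from E12.5 embryos of the 129S6/SvEvTac strain and form 5 groups of 3. In group 1 of the mice, polyA RNA of wildtype and Rpl5 mutant progenitors was sequenced. In group 2, total RNA of wildtype progenitors, of mutants and of mutants labelled low-yield was sequenced, and the sample sheet of that group gives both mutant groups the genotype Rpl5plusSkax23Jus, against wildtype for the controls. RPL5 is part of the large subunit of the ribosome, and the title of the series names Diamond Blackfan anemia syndrome, a congenital red cell disorder. The labels do not define low-yield, do not say how the progenitors were isolated or whether libraries came from separate embryos, and give no genotype beyond wildtype and Rpl5 mutant for group 1. P-values therefore measure the spread between these libraries, which may be technical in part.

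The 7 genes belong to a program that is active in fetal tissues and is known to be restrained by let-7 microRNAs. LIN28B is an RNA-binding protein that blocks the maturation of let-7 precursors, and it is known for its part in the fetal character of blood progenitors and in fetal hemoglobin. HMGA2 and HMGA1 are AT-hook proteins that bind the minor groove of DNA and shape chromatin. IGF2BP1, IGF2BP2 and IGF2BP3 are RNA-binding proteins that affect the stability and translation of their target transcripts, Igf2 among them. ARID3A is a DNA-binding transcription factor with an AT-rich interaction domain. Mature let-7 binds its targets through its seed, bases 2 to 8, and in turn targets Lin28b itself.

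Because the seed defines what these genes share, the mature let-7 sequences and their matches come first. In RefSeq's table for GRCm38.p6, 13 of 1738 mature mouse loci carried the seed GAGGUAG, under 11 names, and 11 of the 13 loci have let-7 names (the others are miR-98 and miR-1961). The family is shown by 4 of its mature forms, with the seed in capitals.
mmu-let-7a-5p: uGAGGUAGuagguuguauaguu
mmu-let-7b-5p: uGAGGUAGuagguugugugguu
mmu-let-7g-5p: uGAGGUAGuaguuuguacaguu
mmu-miR-98-5p: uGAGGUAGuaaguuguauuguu

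The DNA letters that pair with this seed, CTACCTC, were searched on the transcribed strand of the longest annotated 3′ UTR of each gene (GENCODE M21, GRCm38). Of 21130 genes with a 3′ UTR, 2129 (10.1%) held at least 1 match, 273 (1.29%) at least 2 and 37 (0.175%) at least 3. All 7 genes held a match: 4 each in Lin28b, Hmga2 and Igf2bp1, 2 in Arid3a, and 1 each in Hmga1, Igf2bp2 and Igf2bp3. Only 12 genes (0.0568%) held 4 or more. A long 3′ UTR has more room for a match: the median length was 1085 bases, against 4445 in Lin28b, 3014 in Hmga2, 6337 in Igf2bp1 and 3082 in Arid3a. Among genes whose 3′ UTR was within 20% of the same length, 3 of 1458 (0.206%) had as many matches as Lin28b, 3 of 2566 (0.117%) as many as Hmga2, 2 of 601 (0.333%) as many as Igf2bp1 and 64 of 2528 (2.53%) as many as Arid3a, each gene counted with its own. For the genes with 1 match, such shares were 8.64% (Hmga1), 12.8% (Igf2bp2) and 14.5% (Igf2bp3). Several of the 7 are textbook let-7 targets, so the matches are a description and no independent finding, and a match of letters is not evidence that let-7 binds there.

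**Figure D1:**
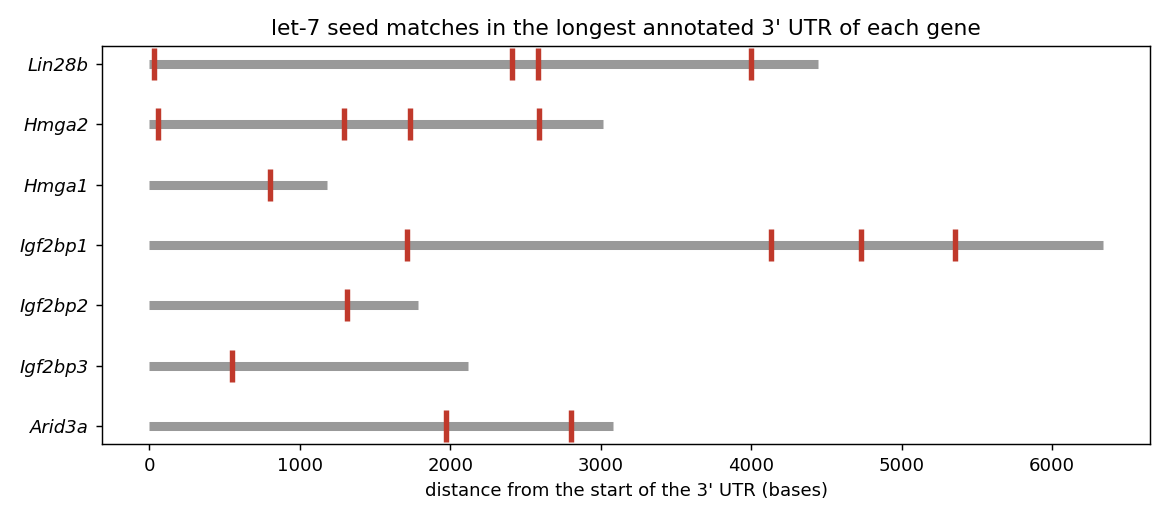
Each grey bar is the longest annotated 3′ UTR of a gene, drawn to scale in bases from its start, and each red mark is a match to the let-7 seed. Lin28b, Hmga2 and Igf2bp1 carry 4 matches each, Arid3a carries 2, and the other genes carry 1.

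The matches of Lin28b and Hmga2 are printed because these genes open the program, with 1 match of each other gene that held fewer than 4 shown for comparison. The capitals mark the 7 bases that pair with the seed, within 30 bases of the transcribed strand, and the coordinates are those of the printed window in GRCm38. The first match of both Lin28b and Hmga2 lay close to the start of the 3′ UTR, after 35 and 57 bases.
Lin28b match 1, chr10:45381015-45381044, minus strand: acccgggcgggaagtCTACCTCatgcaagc
Lin28b match 2, chr10:45378641-45378670, minus strand: tatacttgttagtaaCTACCTCtgagtttg
Lin28b match 3, chr10:45378469-45378498, minus strand: gtttacagcacatggCTACCTCccagctac
Lin28b match 4, chr10:45377053-45377082, minus strand: aaatgatggcaccgaCTACCTCttcaatca
Hmga2 match 1, chr10:120364217-120364246, minus strand: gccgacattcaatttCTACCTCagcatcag
Hmga2 match 2, chr10:120362980-120363009, minus strand: ccccactcctcaataCTACCTCtgaatgct
Hmga2 match 3, chr10:120362542-120362571, minus strand: ctgatttgcaaggaaCTACCTCcacacttc
Hmga2 match 4, chr10:120361684-120361713, minus strand: aatcaaaacacactaCTACCTCttaagtcc
Hmga1 match 1, chr17:27563277-27563306, plus strand: tcctctgttcacaaaCTACCTCtggacggt
Igf2bp2 match 1, chr16:22059466-22059495, minus strand: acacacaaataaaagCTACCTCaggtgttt
Igf2bp3 match 1, chr6:49086780-49086809, minus strand: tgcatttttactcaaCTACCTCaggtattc
Arid3a match 1, chr10:79953895-79953924, plus strand: aaggcaagtttctttCTACCTCaggtcttt

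Total counts per library were 48510828 to 58513669 in group 1 and 24954324 to 44827821 in group 2, deep enough that all 7 genes passed the filter on low counts in every comparison. Rpl5 checked the labels: its CPM (counts scaled to a common effective library size) were 520 to 570 in the mutants of group 1 against 656 to 744 in wildtype, and 219 to 278 in the mutants of group 2 against 303 to 374. Of 10 erythroid markers, 0 were without a count in any of the 5 groups. Their summed CPM was nevertheless lower in the mutants, at 2800 to 2890 against 4360 to 5320 in group 1, and at 3590 to 4030 (mutant) and 3260 to 4050 (low-yield) against 4780 to 7820 in group 2. In bulk libraries, fewer cells of a type and less RNA per cell cannot be told apart. Since the kind of RNA differs, no level of group 1 is compared with one of group 2.

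Hmga2 stood out among the 7 in the size of its difference. Wildtype replicates 1 to 3 of group 1 had 6.42, 13.7 and 15.5 CPM (11.9 ± 4.79, SD, n = 3), and their mutant counterparts had 29.6, 31.9 and 38.4 (33.3 ± 4.56). Those of group 2 had 8.10, 6.93 and 5.32 (wildtype, 6.78 ± 1.39), 24.0, 22.3 and 19.8 (mutant, 22 ± 2.14) and 31.0, 36.8 and 23.0 (low-yield mutant, 30.3 ± 6.93). Every mutant library of either kind lay above every wildtype library of its group. On the log2 scale the fold changes were 1.48 (SE 0.32) for group 1, 1.71 (SE 0.19) for the mutant of group 2 and 2.17 (SE 0.19) for the low-yield mutant, which correspond to 2.8-fold, 3.28-fold and 4.5-fold. Relative to the mean, the wildtype libraries of group 1 spread the most of the 5 groups (CV 40.4%), with replicate 1 at 6.42 CPM below the others. Hmga2 lies on chromosome 10 (120361275 to 120476469, minus strand) and overlaps the antisense genes 1700006J14Rik and 9230105E05Rik and the microRNA gene Mir763. Its counts could also be shared with the processed pseudogene Gm38158, which matches it at 94.6% over 295 bases.

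Lin28b was higher in the mutants by a smaller factor. Wildtype replicates 1 to 3 of group 1 had 123, 114 and 116 CPM (118 ± 4.72, SD, n = 3), and the mutants 159, 138 and 147 (148 ± 10.9). Those of group 2 had 106, 117 and 123 (wildtype, 115 ± 8.42), 139, 136 and 142 (mutant, 139 ± 3.22) and 137, 156 and 135 (low-yield mutant, 143 ± 12). The groups did not overlap in any of the 3 comparisons with wildtype. Log2 fold changes were 0.33 (SE 0.069) in group 1, 0.27 (SE 0.084) for the mutant of group 2 and 0.31 (SE 0.084) for the low-yield mutant, or 1.21-fold to 1.25-fold. Lin28b lies on chromosome 10 (45376620 to 45486395, minus strand) and overlaps no other annotated gene.

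The transcripts of the IGF2 mRNA-binding proteins are given by member, and differences between the members were not tested. For Igf2bp3, wildtype replicates 1 to 3 of group 1 had 50.3, 51.4 and 56.9 CPM (52.9 ± 3.57) and the mutants 67.7, 68.2 and 78.7 (71.6 ± 6.21). Those of group 2 had 55.9, 48.5 and 43.2 (wildtype, 49.2 ± 6.35), 72.7, 57.2 and 62.8 (mutant, 64.2 ± 7.86) and 76.5, 84.3 and 63.2 (low-yield mutant, 74.6 ± 10.7). No mutant library overlapped wildtype in either group of mice. Its log2 fold changes were 0.44 (SE 0.082), 0.39 (SE 0.13) and 0.6 (SE 0.12) in the order group 1, group 2 mutant and low-yield mutant.

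Igf2bp1 likewise did not overlap wildtype, with a smaller difference. Group 1 had 144, 143 and 151 CPM (wildtype) and 174, 163 and 176 (mutant). Group 2 had 463, 482 and 428 (wildtype), 542, 494 and 544 (mutant) and 565, 551 and 498 (low-yield mutant). The log2 fold changes were 0.23 (SE 0.06), 0.2 (SE 0.08) and 0.23 (SE 0.08). Igf2bp2 overlapped wildtype in the mutants of both groups of mice, but not in the low-yield mutants. Group 1 had 14.8, 18.3 and 24.9 CPM (wildtype) and 19.5, 30.2 and 25.4 (mutant), and group 2 had 18.4, 14.1 and 9.87 (wildtype) and 12.9, 22.8 and 10.8 (mutant). The low-yield mutants, at 25.1, 21.2 and 22.3, all lay above wildtype. The log2 fold changes of Igf2bp2 were 0.37 (SE 0.23), 0.13 (SE 0.29) and 0.71 (SE 0.28). In group 1 each mutant library lay above the wildtype library of its number, and Igf2bp2 was called with the replicate number as a block (0.38). Igf2bp1 (chromosome 11, 95957163 to 96005940, minus strand) overlaps the antisense gene Gm29202 and the microRNA gene Mir3063. Igf2bp3 (chromosome 6, 49085223 to 49214957, minus strand) overlaps Malsu1 and Gm18010 on the opposite strand, and Igf2bp2 (chromosome 16, 22059009 to 22163299, minus strand) overlaps no annotated gene.

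Hmga1 was not called in a comparison with wildtype, and Arid3a in group 1 was called with the replicate number as a block but not without it. For Hmga1, group 1 had 608, 590 and 565 CPM (wildtype) and 610, 599 and 608 (mutant), and group 2 had 427, 411 and 393 (wildtype), 458, 394 and 406 (mutant) and 481, 453 and 410 (low-yield mutant). Its groups overlapped throughout, and its log2 fold changes were 0.044 (SE 0.057), 0.031 (SE 0.084) and 0.13 (SE 0.084). Hmga1 (chromosome 17, 27556497 to 27563674, plus strand) overlaps AI413582 and Gm49774 on the opposite strand. The gene Hmga1b on chromosome 11 matches Hmga1 at 99.8% over 1538 bases, so the counts of either are uncertain on their own: Hmga1 took 62.7% to 64.8% of their sum in group 1 and 43.8% to 46.6% in group 2.

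For Arid3a, group 1 had 44.0, 60.7 and 65.9 CPM (wildtype) and 59.8, 84.1 and 70.4 (mutant), which overlap, though each mutant library lay above the wildtype library of its number and the blocked fit called the difference (0.34). The gene lies on chromosome 10 (79927043 to 79955018, plus strand). Group 2 had 80.4, 84.5 and 71.5 (wildtype), 87.5, 78.7 and 80.6 (mutant) and 91.2, 86.2 and 85.5 (low-yield mutant), and the low-yield mutants lay wholly above wildtype. The log2 fold changes were 0.33 (SE 0.19), 0.063 (SE 0.086) and 0.15 (SE 0.086).

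**Figure D2:**
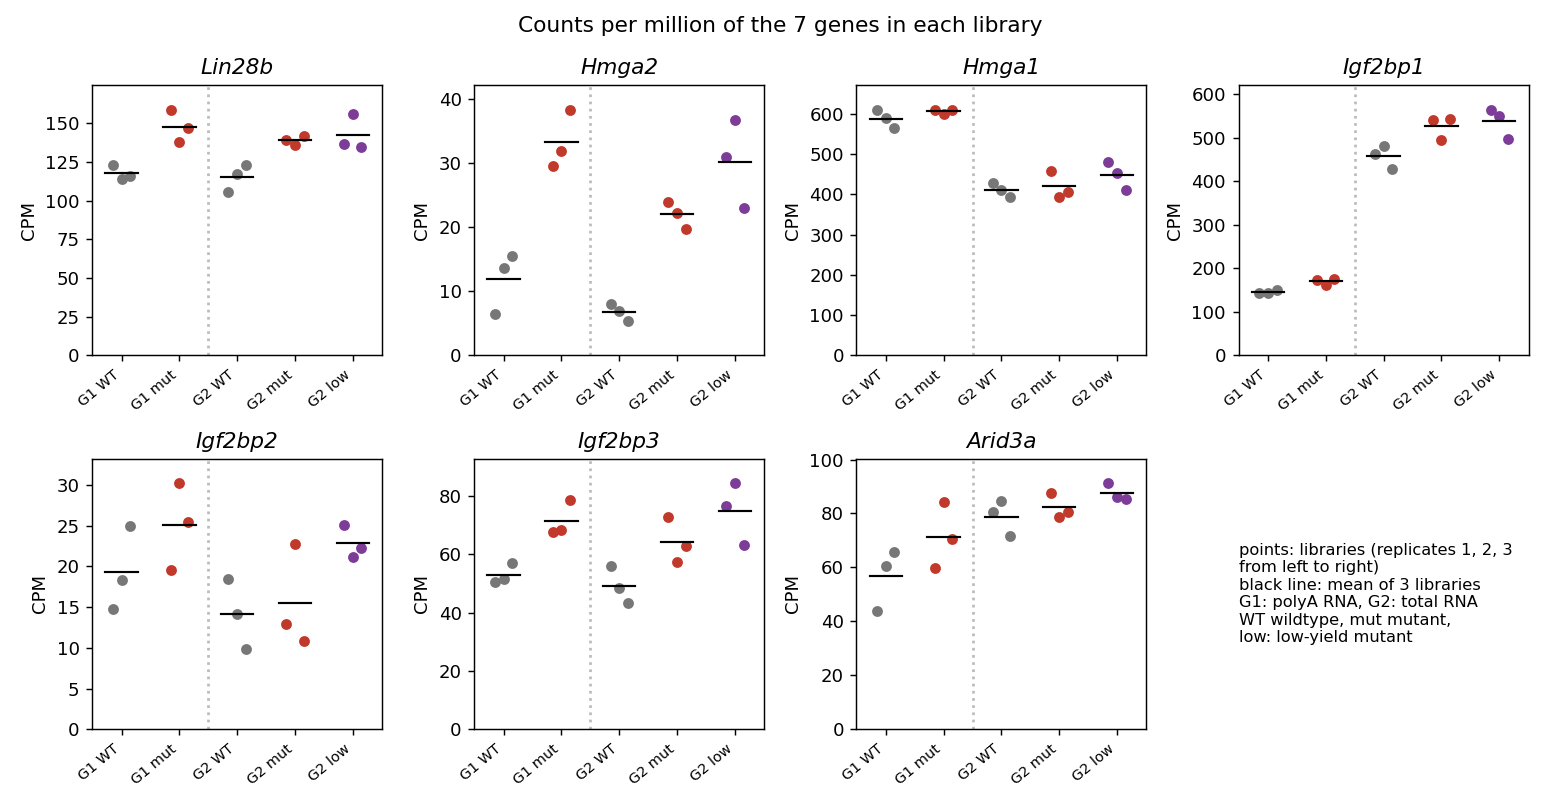
CPM of each gene (vertical axis, from 0) in each library; points are replicates 1, 2 and 3 from left to right, black lines are means of 3 libraries, and the dotted line parts the groups of mice. Hmga2 lies at 6.42 to 15.5 (wildtype) and 29.6 to 38.4 (mutant) in group 1 and at 5.32 to 8.10 (wildtype) and 19.8 to 36.8 (mutants of either kind) in group 2, while Hmga1 overlaps in every comparison.

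The signs agreed over the 7 genes: all 7 log2 fold changes were positive in each of the 3 comparisons with wildtype, with medians of 0.33, 0.2 and 0.31, against 0.0075, -0.0096 and -0.0035 over all genes tested. The low-yield and mutant comparisons of group 2 share their wildtype libraries. At an adjusted p under 0.05 (edgeR's quasi-likelihood test, adjusted over all genes tested), 4 of the 7 were called higher in group 1 (Lin28b, Hmga2, Igf2bp1 and Igf2bp3), where 5.79% of 14048 genes were called higher. In the mutant of group 2 only Hmga2 was called, beside 3.32% of 15024 genes, and in the low-yield mutant Hmga2, Lin28b and Igf2bp3 were, beside 6.68%. Libraries did not overlap, mutant above wildtype, for 4, 4 and 6 of the 7, against 15%, 11.5% and 15.3% of all genes. Nothing is read from these counts, since the genes were chosen with the same contrasts known.

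Some of these calls were narrow. Hmga2 in group 1 lost its call without mutant replicate 1 (log2 fold change 1.56), 2 (1.51) or 3 (1.37) or wildtype replicate 2 (1.6), with no filter on low counts (1.48), and in the legacy quasi-likelihood mode of edgeR (1.49). Igf2bp1 in group 1 lost it on removal of mutant replicate 1 (0.22), mutant replicate 3 (0.21), wildtype replicate 1 (0.23) or wildtype replicate 2 (0.21), and Lin28b without mutant replicate 3 (0.34) or wildtype replicate 2 (0.3). In the low-yield mutant, Lin28b lost it without low-yield replicate 1 (0.34) or 2 (0.24) or wildtype replicate 1 (0.26) or 2 (0.32). Igf2bp3 in group 1 and the low-yield mutant, and Hmga2 in both comparisons of group 2, were called under every alternative run. Igf2bp2 gained a call in the low-yield mutant with DESeq2 (0.7), with the 6 compared libraries alone (0.71) and without mutant replicate 2 (0.71), and in the mutant of group 2 Lin28b gained one with DESeq2 and Igf2bp3 without wildtype replicate 1. In group 1 the replicate numbers were taken to pair the libraries, which the labels do not state. With the replicate number as a block Igf2bp2 (0.38) and Arid3a (0.34) were called too, so that 6 of the 7 were called. The block also raised the calls over all genes, in either direction, from 1766 to 2863 of 14048. With both groups of mice in 1 fit, Hmga2 (1.58, SE 0.17), Igf2bp3 (0.41, SE 0.072), Lin28b (0.3, SE 0.058) and Igf2bp1 (0.22, SE 0.05) were called higher, where 9.8% of 15954 genes were. These 4 were called under all 17 alternatives of that fit, and the block added Arid3a (0.2).

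**Figure D3:**
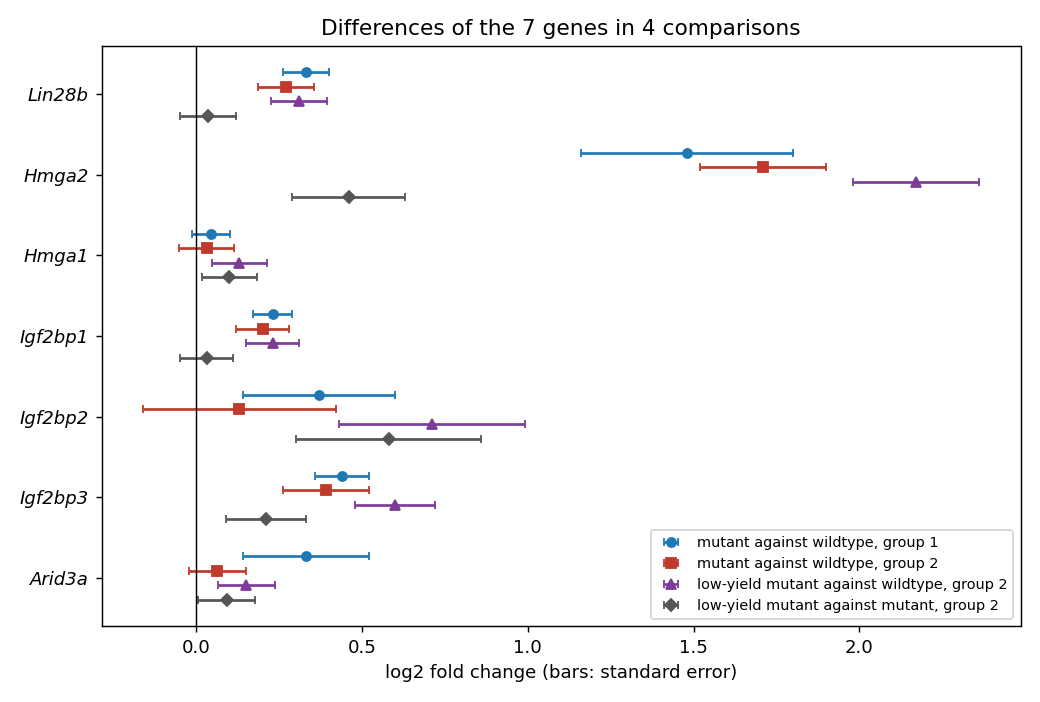
Log2 fold change of each gene (horizontal axis) with its standard error, in 4 comparisons shown by colour and shape. Hmga2 lies between 1.48 and 2.17 against wildtype, the other 6 genes at 0.71 or less, and the grey diamonds compare the low-yield mutant with the mutant.

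The low-yield mutants were also set directly against the other mutants. Whether earlier values of this contrast bore on the choice of the 7 genes is not known, so it is no independent test. By edgeR 0 of the 7 genes were called, at an adjusted p of 1 for each, and 0% of 15024 genes were called in all; 1 of the 7 and 480 of all genes had an unadjusted p under 0.05, and DESeq2 called 0 of the 7 and 6 of all genes. Hmga2 was 0.46 higher on the log2 scale in the low-yield mutants (SE 0.17, interval of 2 SE from 0.12 to 0.79), and low-yield replicate 3, at 23.0 CPM, lay within the range of the mutants. Igf2bp2 was 0.58 higher (0.027 to 1.14) and Igf2bp3 0.21 higher (-0.034 to 0.46). The interval of Igf2bp2 leaves out 0, but its unadjusted p was 0.0625 (edgeR), so no difference is read from it. Lin28b differed by 0.035 (-0.13 to 0.2) and Igf2bp1 by 0.032 (-0.13 to 0.19). Single libraries moved these values: without 1 library Igf2bp2 ranged from 0.37 (without mutant replicate 3) to 0.95 (mutant replicate 2), Hmga2 from 0.29 (low-yield replicate 2) to 0.63 (low-yield replicate 3) and Igf2bp3 from 0.12 to 0.32 (the same libraries as Hmga2). The groups overlapped for all 7 genes, where 8.21% of all genes did not overlap.

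Whether genotype acted differently in group 1 and group 2 was fitted as an interaction. It is built from the contrasts known when the genes were chosen, so for these 7 it too is a description. By edgeR 0 of the 7 genes were called, adjusted p 1 for each, beside 0.0188% of 15954 genes; 0 of the 7 and 342 of all genes had an unadjusted p under 0.05, and DESeq2 called 0 of the 7. For Hmga2 the effect in group 2 minus that in group 1 was 0.25 with an interval from -0.46 to 0.96, wide enough to hold a sizeable difference in either direction. For Lin28b it was -0.039 (-0.28 to 0.2), for Igf2bp3 -0.03 (-0.33 to 0.27) and for Arid3a -0.25 (-0.61 to 0.11).

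The levels of the genes were set side by side per length, as TPM (transcript share scaled by the summed exon length of each gene in GENCODE M21). In wildtype libraries of group 1 the order was Hmga1 (861 ± 35.9, SD, n = 3), Igf2bp1 (46.9 ± 1.18), Lin28b (40.5 ± 1.28), Arid3a (31.9 ± 6.53), Igf2bp3 (20.2 ± 1.28), Igf2bp2 (8.12 ± 2.12) and Hmga2 (5.47 ± 2.22). Igf2bp2 and Hmga2 overlapped there, so their order is not fixed. In wildtype libraries of group 2 it was Hmga1 (501 ± 6.3), Igf2bp1 (123 ± 6.15), Arid3a (36.8 ± 2.64), Lin28b (33.1 ± 3.41), Igf2bp3 (15.6 ± 1.53), Igf2bp2 (4.93 ± 1.35) and Hmga2 (2.59 ± 0.457), with Arid3a and Lin28b overlapping. Hmga2, lowest of the 7 by mean in wildtype of either group but overlapping Igf2bp2 in group 1, stood at 15.7 ± 1.72 TPM in the mutants of group 1, above Igf2bp2 at 10.8 ± 2.29. In group 2 it reached 9.03 ± 0.869 in the mutants, where Igf2bp2 was at 5.88 ± 2.72, and 13.7 ± 4 in the low-yield mutants, where Igf2bp2 was at 9.39 ± 0.86; the TPM of these genes overlapped in both groups.

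Which genes followed Lin28b and Hmga2 most closely was described by the Pearson correlation of log2 CPM over the 15 libraries, each gene centred on its group of mice, among 10189 protein-coding genes whose mean CPM reached 1 in both. The points share genotype groups, so a gene that differs by genotype correlates, and no p is given. Hmga2 was followed by Ttc7b (r = 0.987), Vim (0.977), Sptbn1 (0.975), Prkcq (0.975) and Met (0.972). Vim encodes the intermediate filament vimentin, Sptbn1 a nonerythroid beta spectrin, Prkcq the kinase PKC theta and Met the receptor of hepatocyte growth factor. Mean Ttc7b was 10.3 CPM in wildtype and 18 in mutant libraries of group 1, and 11.3, 21 and 24.1 in wildtype, mutant and low-yield mutant libraries of group 2, in the same order as Hmga2. Among the 7, Igf2bp3 (0.924) and Igf2bp1 (0.887) came closest to Hmga2, then Lin28b (0.794), Arid3a (0.669), Igf2bp2 (0.633) and Hmga1 (0.466). Lin28b was followed by Hnrnph3 (0.962), an RNA-binding protein, Samhd1 (0.953), a nucleotide hydrolase, Ccdc47 (0.945), Slain2 (0.94) and Rad23b (0.938). Igf2bp1 (0.819) was the member nearest to Lin28b, and Igf2bp2 (0.206) the farthest.

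Genes around the 7 were described as lists, and their counts are read against the shares over all genes tested. Those shares were 5.79% higher and 6.78% lower in group 1, 3.32% and 2.95% in the mutant of group 2, and 6.68% and 5.86% in the low-yield mutant. Of 15 genes of LIN28 and let-7 processing, 1 was called higher and 2 lower in group 1, of 14 tested 0 in the mutant of group 2 (edgeR; 5 at an unadjusted p under 0.05 and 3 called by DESeq2), and 2 higher and 3 lower in the low-yield mutant; the medians were -0.086, -0.05 and 0.016. In group 1, 5 were called with the block (2863 genes in all, against 1766) and by DESeq2 (2275 in all), but 1 without wildtype replicate 1 or 2. In the low-yield mutant 1 was called without low-yield replicate 1 or 2, and 3 without wildtype replicate 2 or 3, so these counts rest on few libraries. Trim71, a let-7 target that encodes a ubiquitin ligase of embryonic cells, had counts of 3, 4 and 0 (wildtype) and 25, 33 and 12 (mutant) in group 1. Group 2 had counts of 5, 7 and 30 (wildtype), 39, 39 and 58 (mutant) and 137, 91 and 55 (low-yield mutant). Trim71 passed the filter on low counts through the mutant libraries, where it is high, so its calls (the higher one of group 1 and 1 of the 2 higher ones of the low-yield mutant) are counted above but support no change, and no fold is given.

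Tut7, a terminal uridylyltransferase that acts on let-7 precursors, fell in group 1 (-0.36, SE 0.079, adjusted p 0.0125, edgeR) and in the low-yield mutant (-0.44, SE 0.11, adjusted p 0.0202). The low-yield mutant also had lower Dis3l2, the exonuclease that degrades uridylated let-7 precursors (-0.47, SE 0.13, adjusted p 0.0272), and lower Ago2, the effector of microRNA silencing (-0.45, SE 0.1, adjusted p 0.00759). All 3 calls of the low-yield mutant were lost without low-yield replicate 1 or 2, that of Tut7 also without wildtype replicate 2 or 3 and that of Dis3l2 also without wildtype replicate 1; the highest adjusted p values were 0.112 (Tut7), 0.152 (Dis3l2) and 0.0563 (Ago2). Drosha, the nuclease that cuts primary microRNA transcripts, was with Trim71 the other gene called higher in the low-yield mutant (0.26, SE 0.08, adjusted p 0.047, edgeR). It lost the call on removal of low-yield replicate 1 or 2, mutant replicate 3 or wildtype replicate 2 or 3, with no filter and with the 6 compared libraries alone (adjusted p up to 0.215). Drosha was not called in the main edgeR fit of group 1 (0.2, adjusted p 0.0572) or in the mutant of group 2 (0.25, adjusted p 0.0771), but DESeq2 called it in both. In group 1 edgeR called it with the block and without mutant replicate 2. Lin28a, the paralogue of Lin28b, was scarce, at a mean of 0.746 CPM in wildtype and 1.59 in mutant libraries of group 1, and was not called there (1.09, SE 0.75, adjusted p 0.403); in group 2 it did not pass the filter. The 12 hairpin genes of the let-7 family found in the tables (Mir98 included) held 0 counts in all 15 libraries, and mature microRNAs were not analysed here. Of the genes that host let-7 hairpins, Huwe1 and Wdr82 were tested. The fold changes of Huwe1 were 0.27, 0.22 and 0.15 and those of Wdr82 0.051, 0.1 and 0.089 in the 3 comparisons with wildtype, and by edgeR 0 were called (for Huwe1 the unadjusted p was 0.0197, 0.0394 and 0.127). Huwe1 was called in the fit of both groups of mice (0.24, SE 0.072, adjusted p 0.0225, edgeR). It was not called there without mutant replicate 1 or wildtype replicate 1 of group 1, or without mutant replicate 3 of group 2. In group 1 alone 1 of these genes was called by DESeq2, with the block and without mutant replicate 3.

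A list of 34 other genes known as let-7 targets was compared next. In group 1, 5 of 31 tested were called higher and 0 lower, in the mutant of group 2 it was 4 of 32 and in the low-yield mutant 6 of 32, again with 0 lower. Over all genes 5.79%, 3.32% and 6.68% were called higher. With both groups of mice in 1 fit, 6 of 31 were called higher and 2 lower, where 9.8% of all genes were called in each direction. In group 1, 12 were called with the block, which called 2863 of 14048 genes in all against 1766 without it, and 8 by DESeq2 (2275 in all). The count was 2 without wildtype replicate 1 (1051 genes in all), and 3 without wildtype replicate 2 (836) or 3 (1168) or mutant replicate 3 (753). In the mutant of group 2, 2 were called without mutant replicate 3 (433 genes in all, against 942) or wildtype replicate 3 (480), and in the low-yield mutant 3 without low-yield replicate 1 (902, against 1884). Onecut2, among the 6 of the low-yield mutant, had counts of 0, 3 and 1 in wildtype and passed the filter through the low-yield libraries, at 21, 10 and 14, so its call supports no change. The medians over the tested genes were 0.082, 0.04 and 0.049, beside 0.0075, -0.0096 and -0.0035 over all genes. Ccnd2, the G1 cyclin D2, rose by 0.86 (SE 0.07), 0.74 (SE 0.13) and 0.82 (SE 0.13), with adjusted p 3.22e-05, 0.00569 and 0.00153 by edgeR, and was called under every alternative run. Its CPM was 66.2 to 67.9 in wildtype and 114 to 132 in mutant libraries of group 1. The activin receptor Acvr1b rose by 0.79, 0.74 and 0.96, and the kinases Map4k4 (0.62, 0.57 and 0.53) and Mapk6 (0.27, 0.45 and 0.52) were called in the same 3 comparisons. These calls were less firm: Acvr1b lost that of group 1 on removal of mutant replicate 2 or 3, or of wildtype replicate 1 or 2 (adjusted p up to 0.0792) and that of the group 2 mutant on removal of mutant replicate 1, mutant replicate 3 or wildtype replicate 3 (up to 0.096). Mapk6 lost that of group 1 without mutant replicate 3 or any wildtype replicate (up to 0.0958). Map4k4 lost that of the group 2 mutant without any mutant replicate or wildtype replicate 2 or 3 (up to 0.149), and that of the low-yield mutant without low-yield replicate 1 or 2 or wildtype replicate 2 (up to 0.163). Cdk6, the kinase partner of D cyclins, was called in group 1 (0.29, adjusted p 0.0238, edgeR) but not without mutant replicate 1 or wildtype replicate 1 or 3 (up to 0.0936), while the transcription factor Myc was not called in any of the 3.

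The seed match itself was set against the fold changes of all other genes. In group 1, the median log2 fold change of genes with 0, 1, 2 and 3 or more matches was 0.013 (10390 genes), 0.0028 (1236), -0.0017 (164) and 0.029 (25). The share called higher was 6.62%, 7.12%, 5.49% and 8%, and the share called lower 7.54%, 8.01%, 9.15% and 12%. In the low-yield mutant the medians were 0.011, 0.0082, -0.044 and 0.0029, with 7.96%, 10.1% and 5.88% called higher and 6.86%, 7.18% and 10.6% lower for 0, 1 and 2 matches, and 3 higher and 4 lower of the 24 genes with 3 or more. In the mutant of group 2, 4.01%, 4.95%, 2.35% and 8.33% were called higher and 3.47%, 3.75%, 5.29% and 0% lower. The median log2 fold changes for the mutant of group 2 were 0.0026, -0.0059, -0.048 and -0.064. The highest bin held 24 or 25 genes in each comparison.

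**Figure D4:**
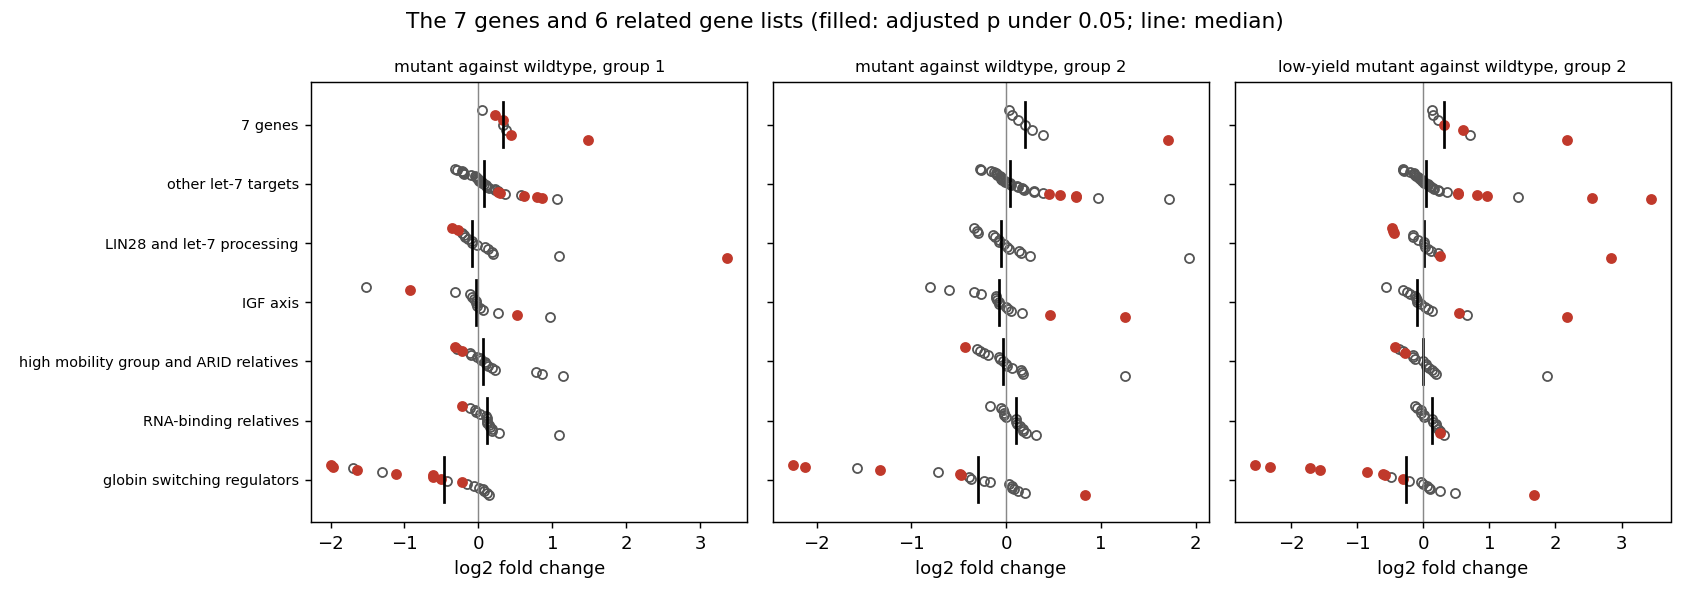
Log2 fold change against wildtype (horizontal axis) of each tested gene of the 7 and of 6 related lists, in 3 comparisons; filled red points passed an adjusted p of 0.05 over all genes, open points did not, and black lines are medians. The median of the 7 is 0.33 in group 1, that of other let-7 targets 0.082 and that of the globin list -0.46.

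The insulin-like growth factor axis, whose Igf2 transcript gave the IGF2BP proteins their name, had 1 gene called higher and 1 lower of 14 tested in group 1 (5 with the block, which raised all calls too), and 2 higher and 0 lower of 15 in each comparison with wildtype of group 2 (1 in the mutant without wildtype replicate 2 or 3). Over all genes 5.79% were called higher and 6.78% lower in group 1, and for group 2 the shares called higher were 3.32% (mutant) and 6.68% (low-yield mutant). Grb10, an imprinted adaptor that restrains insulin and IGF1 receptor signalling, rose in all 3 comparisons by 0.52 (SE 0.063), 0.46 (SE 0.077) and 0.54 (SE 0.077), with adjusted p 0.000497, 0.00285 and 0.000462 by edgeR. Its CPM was 465 to 499 in wildtype and 664 to 738 in mutant libraries of group 1. Igfbp4, which binds IGFs outside the cell, rose in the mutant (1.25, SE 0.3, adjusted p 0.0228, edgeR) and low-yield mutant (2.17, SE 0.28, adjusted p 0.000248) of group 2, and the first of these calls ended on removal of mutant replicate 2, wildtype replicate 2 or wildtype replicate 3 (adjusted p up to 0.0919). The imprinted noncoding RNA H19, a neighbour of Igf2 and a known partner of the IGF2BP proteins, fell in group 1 (-0.92, SE 0.13, adjusted p 0.00559, edgeR) and was not called in group 2 (-0.8 and -0.56). Igf2 itself was scarce, at 1.52 to 11.5 CPM in group 1 and 2.89 to 15.7 in group 2.

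LIN28B is known for its link to fetal hemoglobin, so the globins and their regulators were listed. Of 18 genes, 8 were called lower in group 1 and 0 higher, 5 lower and 1 higher in the mutant of group 2, and 8 lower and 1 higher in the low-yield mutant, where 6.78%, 2.95% and 5.86% of all genes were called lower. In either direction, 4 were called in group 1 without wildtype replicate 2 and 5 without mutant replicate 2 or 3. In the mutant of group 2 it was 2 without mutant replicate 2 and 3 without mutant replicate 1 or 3 or wildtype replicate 2, and in the low-yield mutant 5 without low-yield replicate 1 or 2 or wildtype replicate 2. The adult beta globin Hbb-bt fell by 1.97 (SE 0.11), 2.25 (SE 0.38) and 2.55 (SE 0.38), with adjusted p 5.46e-06, 0.0187 and 0.00681 by edgeR; its reads can be shared with Hbb-bs, which fell by 1.12, 1.33 and 1.56. In the mutant of group 2 both calls ended on removal of mutant replicate 1, mutant replicate 2 or wildtype replicate 2, that of Hbb-bt also without mutant replicate 3 or with the 6 compared libraries alone, and that of Hbb-bs also with no filter (adjusted p up to 0.09 for Hbb-bt and 0.115 for Hbb-bs). The embryonic globin Hbb-bh1 rose in group 2, by 0.83 (SE 0.18, adjusted p 0.0209, edgeR) in the mutant and 1.68 (SE 0.18, adjusted p 0.000193) in the low-yield mutant; removal of mutant replicate 2 or 3, or of wildtype replicate 1 or 3, ended the former call (adjusted p up to 0.101). In group 1 it was not called, with 17.3, 39.4 and 154 CPM (wildtype) and 48.3, 99.3 and 66.1 (mutant). Among regulators that silence fetal globin, Zbtb7a fell by 0.61, 0.49 and 0.58 and was called in all 3 comparisons, as was Klf1, though Zbtb7a lost the call of group 1 with no filter and on removal of mutant replicate 2 or 3, or of wildtype replicate 1 or 2 (adjusted p up to 0.0912); Bcl11a was not called in any (0.11, 0.12 and 0.089).

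Relatives of the 7 by protein family were counted last. Of the high mobility group and ARID relatives, 0 were called higher and 2 of 16 lower in group 1, 1 of 15 lower in the mutant and 2 of 15 lower in the low-yield mutant of group 2. With 6.78%, 2.95% and 5.86% of all genes called lower, counts of 1 or 2 say little about the family, while DESeq2 called 4 in group 1. The counts of 2 fell to 1 without any of the libraries named for Hmgb3 in what follows. Hmgb2, a chromatin protein of dividing cells, fell by 0.31 (SE 0.062), 0.43 (SE 0.081) and 0.42 (SE 0.081), with adjusted p 0.00705, 0.00549 and 0.00314 by edgeR, and Hmgb3 was called lower in group 1 (-0.22) and the low-yield mutant (-0.27), calls that were lost without any wildtype replicate or mutant replicate 2 or 3 of group 1 (adjusted p up to 0.177) and without low-yield replicate 1 or 2, mutant replicate 3 or wildtype replicate 3 of group 2 or with the 6 compared libraries alone (up to 0.175). Of 15 RNA-binding relatives, Pcbp1 alone was called in group 1 (-0.22, adjusted p 0.0387, edgeR) and Dhx9 alone of 14 in the low-yield mutant (0.26, adjusted p 0.0305); in group 1, 4 were called with the block, 5 by DESeq2 and 3 with no filter on low counts. In the mutant of group 2, 0 of 14 were called by edgeR and by DESeq2, and 3 had an unadjusted p under 0.05. Pcbp1 lost its call without any mutant replicate or wildtype replicate 1 or 2 (adjusted p up to 0.184), and Dhx9 without low-yield replicate 1 or 2, mutant replicate 3 or wildtype replicate 2 or 3 (up to 0.152).

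Summed markers of other cells were set beside the 7 genes. The stem and early progenitor markers summed to 488 to 631 CPM (wildtype) and 548 to 670 (mutant) for group 1, and to 433 to 585, 582 to 681 and 599 to 725 for group 2 in the same order with low-yield mutants last; 1 of 9, 2 of 8 and 2 of 8 tested members were called higher, beside 5.79%, 3.32% and 6.68% of all genes. Granulocyte markers summed to 6.64 to 15 CPM (wildtype), 53.6 to 144 (mutant) and 95.3 to 169 (low-yield mutant) for group 2, with 6 and 8 of 8 called higher. With so low a wildtype sum, some of them may have passed the filter only through the mutant libraries. Which did was not examined, so nothing is read from these calls. In group 1 the granulocyte markers summed to 72.9 to 485 against 132 to 1030, with 0 called. Megakaryocyte markers summed to 19.1 to 30.4 against 27.4 to 43.7 CPM in group 1, and to 15.9 to 18.8, 26.5 to 27.1 and 37.3 to 48.1 in group 2. Of those tested, 0 of 7, 1 of 6 and 4 of 6 were called higher in the 3 comparisons with wildtype. Ppbp was without a count in wildtype of group 2, and the same limit may hold for these calls. Endothelial markers summed to 2.09 to 4.38 (wildtype) and 3.91 to 9.67 (mutant) in group 1, and to 0.896 to 1.9, 3.56 to 5.87 and 6.45 to 10 in group 2 in the order wildtype, mutant and low-yield mutant; of 4 tested genes Pecam1 was called higher in both comparisons, from wildtype counts of 20 to 46. Kdr and Tek, called in the low-yield mutant, had wildtype counts of 0 to 11 and 0 to 7 and passed the filter through the mutant libraries, so their calls support no change. Hepatocyte markers, whose cells surround these progenitors, were lower in the mutants of group 1 (7.61 to 23.4 against 35 to 64.6, with 2 of 10 called lower, as were 6.78% of all genes) and overlapped in group 2 (11.4 to 80.9 in wildtype, 11.1 to 51.1 in mutant and 45.1 to 51.8 in low-yield libraries). Macrophage markers were near 0, at 0.83 to 10.4 CPM in sum, with C1qc, Cd163 or C1qa without a count in some groups. Mesenchymal markers were near 0 too, and summed to 1.64 to 2.18 (wildtype) and 4.37 to 6.36 (mutant) in group 1. Of 7 listed, 2 were tested there and 1 was called higher, beside 5.79% of all genes. Pdgfra was without a count in both groups, and Col3a1 and Dcn were without one in the mutants only, so the sum rests on few markers. In group 2 the mesenchymal markers summed to 2.51 to 4.33 (wildtype), 4.13 to 5.94 (mutant) and 4.96 to 8.04 (low-yield mutant). The low-yield libraries lay wholly above wildtype, but 0 of 3 tested were called in either comparison. The part of erythroid, progenitor, granulocyte, megakaryocyte, endothelial, hepatocyte and mesenchymal transcripts in the differences of the 7 genes was not tested.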

How the data were processed

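Per the labels, RNA of fetal liver erythroid progenitors was sequenced as 151 bp reads. The authors deposited expected counts per gene, not normalised, in 1 table per group of mice. The submitters' processing notes name cutadapt 2.3, FastQC 0.11.8, STAR 2.7.8a, RSEM 1.3.3, MultiQC 1.7 and GRCm38, with no role or order; use of strand and annotation release are not given in the sources used here. The deposited expected counts were whole, and rounding left them as they were. Reporter rows (9, holding 5 counts) were left out.

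Genes were tested with edgeR 4.0.16 (R 4.3.3, limma 3.58.1): TMM, filterByExpr, robust quasi-likelihood fit, two-sided, Benjamini-Hochberg adjustment over all genes tested, threshold 0.05. Comparisons of group 2 share 1 fit over 9 libraries. The installed default (legacy) mode was run first, and the newer mode was then taken as the main one because earlier processing of the whole series had used it. This choice was made after the values were seen and decides the call of Hmga2 in group 1. DESeq2 1.42.0, RLE size factors, no filter, a replicate block, the 6 compared libraries alone and each library left out were alternatives; summed Hmga1 and Hmga1b counts, the legacy mode and settings for the lists were added after seeing the data. The fits were tested on simulated counts with known changes, each larger than any difference from wildtype of the followed genes other than Hmga2. The simulation therefore does not show how well smaller differences are called.

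In group 1 the deviations of same-numbered libraries from their group means correlated at 0.533, 0.219 and 0.208, all over 0.1, so the numbers were taken to pair them. Differently numbered libraries there ranged from -0.438 to 0.296, and the highest of these lay above 0.219 and 0.208. The pairing is therefore inferred and not established. In group 2 the same-numbered libraries did not pass this rule.

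CPM used TMM effective library sizes; TPM used GENCODE M21 exon lengths, known for 99.5% of genes. log2 CPM for correlations had 0.5 added. Intervals are 2 SE. Named genes are the 7; up to 6 per list that were called in a comparison with wildtype or were the most abundant of their list; the 5 protein-coding genes closest to Lin28b and Hmga2; and Rpl5. Lin28a, Myc, Igf2 and Bcl11a were added for their known roles after values were seen. The 7 genes, the lists and the marker sets were chosen with earlier results of these data known. Lin28a, Arid3b, Igf1r, Insr and Irs2 are each in 2 lists.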

Additional observations from a re-analysis of the deposited data

How the results depend on the processing

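All 7 genes passed the filter on low counts; what depth and the number of libraries (3 a group) each cost in calls was not tested. In group 1 the replicate block raised the genes called from 1766 to 2863, and the 7 from 4 to 6. The pairing in group 1 is inferred, and same-numbered libraries of group 2 did not pass the rule for it. There the block gave 3 of the 7 in the mutant (adding Lin28b and Igf2bp3) and 5 interaction genes, and with both groups of mice 5 of the 7. DESeq2 gave 2 of the 7 in the mutant of group 2, 6 genes for low-yield against mutant and 12 for the interaction. In the legacy mode, added after seeing the data and run before the main mode was chosen, group 1 had 1678 genes and 3 of the 7, and Hmga2 an adjusted p of 0.0623 (0.0445 in the newer mode by edgeR; 0.000599 to 0.131 over all alternatives).

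With 1 library left out, genes called ranged over 753 to 1729 in group 1 (753 without mutant replicate 3), 425 to 1323 in the mutant of group 2 (425 without wildtype replicate 2), 900 to 2395 in the low-yield mutant (900 without low-yield replicate 2), 0 to 22 for low-yield against mutant (22 without low-yield replicate 3), 2526 to 3629 for both groups of mice and 2 to 3 for the interaction. Of the 7, 1 to 4, 1 to 2, 2 to 4, 0 to 0, 4 to 4 and 0 to 0 were called in that order. The low value of 1 in group 1 came without mutant replicate 3 or wildtype replicate 2.

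Signs turned as follows. Hmga1 in the interaction (0.0053) was -0.021 with DESeq2 and with RLE size factors, -0.0098 with no filter and -0.011 with Hmga1b added, and -0.094 to 0.046 with 1 library left out. Leaving out 1 library gave, in the mutant of group 2, Arid3a -0.0036 to 0.12, Hmga1 -0.029 to 0.075 and Igf2bp2 -0.24 to 0.37; for low-yield against mutant, Igf2bp1 -0.012 to 0.084 and Lin28b -0.032 to 0.074; for the interaction, Igf2bp1 -0.09 to 0.022 and Igf2bp3 -0.16 to 0.04. Uncalled genes of the lists turned too: Hbb-bh1 -0.43 to 1.33 in group 1, Igf2 -1.14 to 0.18 (-0.6 with all libraries, 0.18 without wildtype replicate 3) and Myc -0.19 to 0.13 in the mutant of group 2, Igf2 -0.23 to 0.92 and Myc -0.13 to 0.19 in the low-yield mutant, and Myc -0.02 to 0.12 in both groups of mice. The cause of these turns was not tested. Lin28b, Hmga2, Igf2bp1 and Igf2bp3 were positive against wildtype under every alternative run.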
